A study of Mus musculus with 25 samples.

Results

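The genes described are NRF2 antioxidant targets: *Nfe2l2*, which encodes the transcription factor NRF2, and 9 genes that NRF2 is known to induce, namely *Nqo1*, *Gclc*, *Gclm*, *Hmox1*, *Txnrd1*, *Srxn1*, *Osgin1*, *Slc7a11* and *G6pdx*. The 10 members were taken by symbol from a named list and matched to Ensembl gene identifiers, out of 48795 genes in the files, and the rule that picks them uses no measured value, although the list was drawn up with earlier results of these data known. Each of the 10 was found once and passed the filter on low counts.

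NRF2 is held in the cytoplasm and marked for degradation by KEAP1, which acts with the CUL3 ubiquitin ligase. When electrophiles or oxidants modify KEAP1, NRF2 accumulates, pairs with a small MAF protein and binds antioxidant response elements, where BACH1 can compete with it. The targets make glutathione, regenerate thioredoxin, reduce quinones, supply NADPH and break down heme, and in liver the pathway is best known for the defence against reactive drug metabolites. NRF2 is regulated largely at the level of protein, so the mRNA of its targets is often read alongside its own.

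Bulk mRNA sequencing covered 25 libraries in 5 groups, all from male mice of the inbred C57BL/6J strain. Untreated mice on the control diet (CD, AIN-93G) gave nonDEN-L-CD (n = 3), and untreated mice on the western-style diet (WD, AIN-76A) gave nonDEN-L-WD (n = 4). Mice injected with the carcinogen diethylnitrosamine (DEN) at 25 mg/kg at 2 weeks of age gave DEN-L-CD (liver, control diet, n = 4), DEN-PT-WD (peritumoral liver, western diet, n = 8) and DEN-T-WD (tumor, western diet, n = 6). Diets began at weaning, and mice were killed at 36 weeks, while the study's supplement also names 39 weeks. Tumors of mice given DEN and the control diet were too small to be cut out, so DEN-L-CD liver may hold tumor tissue. The labels do not say which tumor and which peritumoral sample came from 1 mouse. The p-values rest on the spread between libraries within groups, estimated over all 5 groups together. These are bulk samples, in which fewer cells of a type and less RNA per cell cannot be told apart.

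Libraries held 21530083 to 38074411 expected counts, the reads that RSEM assigned to genes. Levels are given as TPM, which correct for gene length and so allow comparison between genes. Differences are log2 fold changes of expected counts with their SE, from edgeR's quasi-likelihood test on TMM-normalized counts, with Benjamini-Hochberg adjusted p-values over 15625 genes. A gene passed the test at an adjusted p of at most 0.05. The median tested gene differed by at most 0.03 between groups on the TMM scale but by up to 0.35 (DEN-T-WD over nonDEN-L-WD) on the log2 TPM scale, so the tests rest on the former. Hepatocyte markers were abundant in every library (summed TPM of 6 markers 30411 to 131128). The 8 pericentral hepatocyte markers were all lower in tumors than in peritumoral liver, as were 2 of 7 macrophage markers, while 3 of 5 stellate cell markers were higher and *Lrat*, another of them, lower (19.5% of the tested genes were higher and 18.1% lower). The hepatocyte sum was 110195 to 131128 TPM in 5 tumors and 38542 to 66578 TPM in peritumoral liver, and most of it was the albumin gene *Alb*. Taken gene by gene the hepatocyte markers were mixed. Of the 6, 3 passed with a positive tumor difference, 1 passed with a negative one and 2 did not pass. The part of these markers in the member differences was not tested.

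Some libraries stood apart. DEN-T-WD replicate 5 had the lowest sum of the hepatocyte markers of the 25 libraries (30411 TPM against 110195 to 131128 in the other tumors), and *Alb*, which encodes albumin, was at 21879 TPM there against 82845 to 99736 TPM. Of the 6 markers 5 were below all other tumors there, and *Cps1*, a urea cycle gene, was above them (660 TPM against 373 to 528). In nonDEN-L-CD, replicates 2 and 3 had 16873 and 18709 TPM of 7 acute-phase genes against 5137 TPM in replicate 1. Exocrine pancreas markers summed to over 1000 TPM in 6 libraries (nonDEN-L-WD replicate 4, DEN-L-CD replicate 3, DEN-PT-WD replicates 1, 2 and 6, and DEN-T-WD replicate 6). Values without these libraries are given for the results they changed most.

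NRF2 binds a short element, and 8 of the 10 members had a promoter entry in RefSeq (GRCm38.p6), with *Txnrd1* having 3 start sites, while *Gclc* and *Hmox1* had no entry. The RefSeq start of *Osgin1* lies inside the gene span given for it here. The 250 bases before each start were searched on both strands. The strict element TGANTCAGC, which holds the AP-1 core TGANTCA within it, lay in the windows of *Srxn1* and *Osgin1*, and in 1.02% of 32851 windows of all genes. The looser TGACNNNGC lay in those of *Nfe2l2*, *Gclm*, *G6pdx* and 1 of the 3 windows of *Txnrd1*, and in 10.2% of all windows. A match is a run of letters and not a bound site, and enhancers further away were not searched. The windows of the 2 genes with the strict element are shown 5′ to 3′ on the strand of the gene. Those of *Slc7a11* and *Nqo1*, the 2 members with the largest gap between replicate 5 and the other tumors, are shown too. *Srxn1*, *Osgin1*, *Slc7a11* and *Nqo1* were all higher in tumors than in peritumoral liver with and without replicate 5. Capitals mark the element, which for *Osgin1* lies on the opposite strand, and no letters of *Slc7a11* and *Nqo1* matched.
Srxn1, chr2:152105274-152105523, plus strand: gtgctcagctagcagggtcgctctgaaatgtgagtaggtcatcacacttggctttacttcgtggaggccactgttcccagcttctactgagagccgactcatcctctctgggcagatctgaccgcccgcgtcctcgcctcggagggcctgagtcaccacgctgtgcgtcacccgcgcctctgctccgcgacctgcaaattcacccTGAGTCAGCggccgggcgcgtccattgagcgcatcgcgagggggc
Osgin1, chr8:119436897-119437146, plus strand: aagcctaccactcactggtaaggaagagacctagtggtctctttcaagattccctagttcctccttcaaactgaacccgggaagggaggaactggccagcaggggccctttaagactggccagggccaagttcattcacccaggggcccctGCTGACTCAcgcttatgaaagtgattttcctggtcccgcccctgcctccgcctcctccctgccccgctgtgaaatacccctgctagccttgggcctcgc
Slc7a11, chr3:50443614-50443863, minus strand: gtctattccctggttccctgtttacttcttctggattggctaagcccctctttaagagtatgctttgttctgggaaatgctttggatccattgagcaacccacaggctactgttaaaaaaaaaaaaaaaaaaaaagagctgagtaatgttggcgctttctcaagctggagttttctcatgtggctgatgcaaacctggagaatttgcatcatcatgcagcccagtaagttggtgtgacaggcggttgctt
Nqo1, chr8:107403206-107403455, minus strand: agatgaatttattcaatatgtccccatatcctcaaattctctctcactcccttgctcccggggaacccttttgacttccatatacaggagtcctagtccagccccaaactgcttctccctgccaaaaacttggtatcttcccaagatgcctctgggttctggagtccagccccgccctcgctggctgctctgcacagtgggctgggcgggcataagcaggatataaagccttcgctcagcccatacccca

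The comparison of tumors with peritumoral liver asks which members differ with the transformed state under the same diet and carcinogen. Of the 10 members, 6 were higher in DEN-T-WD than in DEN-PT-WD (*Nqo1*, *Gclc*, *Srxn1*, *Osgin1*, *Slc7a11* and *G6pdx*) and none was lower, beside 19.5% of the tested genes higher and 18.1% lower. *Nqo1*, *Srxn1*, *Osgin1* and *Slc7a11* also differed at least 2-fold, as 4.81% of the tested genes did in that direction. The median log2 fold change was 0.83 over the members and 0.01 over all tested genes. These values rest in good part on 1 tumor. Without replicate 5, *Nqo1*, *Srxn1*, *Osgin1*, *Slc7a11* and *G6pdx* were still higher, *Gclc* no longer passed, *Gclm* was lower and the median fell to 0.36, beside 20.9% of the tested genes higher and 20.4% lower. The differences of *Nqo1* (0.50) and *Srxn1* (0.91) then fell below 2-fold.

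**Figure D1:**
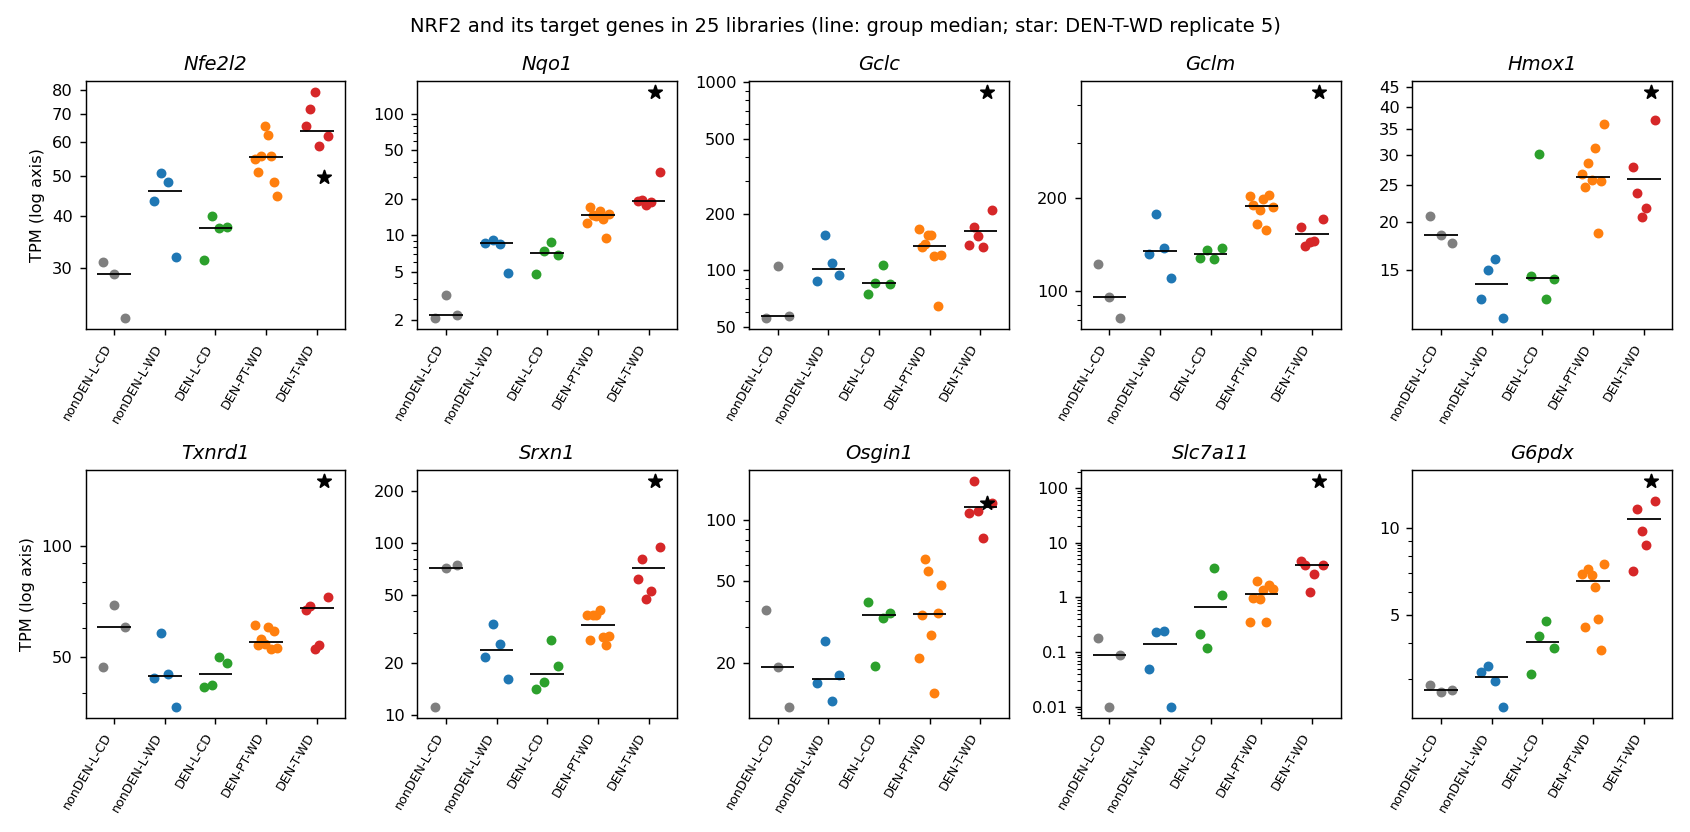
Level of each member in TPM (log axis) in the 25 libraries by group, each point a library, the line the group median and the star DEN-T-WD replicate 5. The star lies at the top for 8 of the 10 members, inside the range of the tumors for Osgin1 and below the other tumors for Nfe2l2.

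DEN-T-WD replicate 5 had the highest TPM of all 25 libraries for 8 of the 10 members. In TMM-normalized CPM it was highest for 7 members, as it was for 13.1% of the tested genes, with *Hmox1* the gene that changed between the scales. It exceeded 2 times the highest of the 5 other tumors in 5 members and in 2.66% of the tested genes. No other library exceeded 2 times the rest of its group in more than 1 member. On the TMM scale the excess over the median of the other tumors was 35.8-fold for *Slc7a11*, 7.11-fold for *Nqo1*, 5.03-fold for *Gclc*, 3.49-fold for *Srxn1*, 2.84-fold for *Gclm* and 2.13-fold for *Txnrd1*. It was 1.70-fold for *Hmox1* and 1.29-fold for *G6pdx*, while *Osgin1* was at 0.97 times and *Nfe2l2* itself at 0.72 times that median, below every other tumor. This is 1 library with no replicate, so its values are a description without a test.

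**Figure D2:**
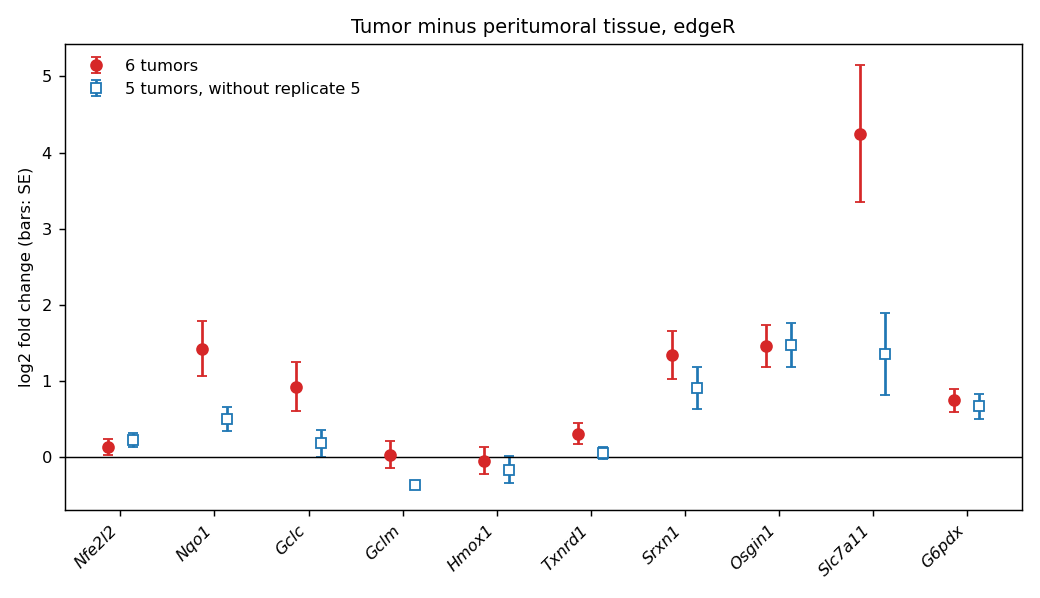
Log2 fold change of each member between tumors and peritumoral liver with its SE (edgeR), with all 6 tumors (circles) and without DEN-T-WD replicate 5 (squares). Slc7a11 moves from 4.25 to 1.36 and Nqo1 from 1.43 to 0.50, while Osgin1 (1.46 and 1.47) and G6pdx (0.74 and 0.67) stay in place.

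*Nfe2l2* (chr2:75675513-75704641, minus strand, GRCm38) had 22.8 to 31.1 TPM in nonDEN-L-CD. It had 43.6, 50.7, 48.3 and 31.9 TPM in nonDEN-L-WD and 31.4 to 39.9 TPM in DEN-L-CD. DEN-PT-WD ranged from 44.8 to 65.8 TPM with a median of 55.2, and DEN-T-WD from 49.7 to 79.0 TPM with a median of 63.8. No nonDEN-L-CD library reached the lowest of nonDEN-L-WD, and the tumors overlapped peritumoral liver. The western diet went with a higher level in untreated mice (log2 fold change 0.51 ± 0.15 SE, adjusted p = 0.0178), which was the only member to pass in that comparison. Without nonDEN-L-CD replicate 2 or 3, or nonDEN-L-WD replicate 3, its adjusted p rose to 0.0643, 0.116 and 0.0543. Its log2 fold change was 0.50 without nonDEN-L-CD replicate 2 and 0.39 without nonDEN-L-CD replicate 3. The tumor difference from peritumoral liver was 0.14 ± 0.10 (adjusted p = 0.323), or 0.22 ± 0.09 without replicate 5 (adjusted p = 0.0628).

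*Keap1*, the NRF2 inhibitor, had 13.5 to 19.5 TPM in tumors and 13.9 to 18.1 TPM in peritumoral liver, and its log2 fold change was -0.06 ± 0.07 (adjusted p = 0.553). *Bach1*, the competing repressor, was higher in tumors (log2 fold change 0.85, adjusted p = 0.000356), at 29.8, 37.0, 44.8, 41.8 and 32.6 TPM in replicates 1 to 4 and 6 against 14.5 to 23.6 TPM in peritumoral liver. In replicate 5 it was at 17.1 TPM, within the peritumoral range. *Maff*, a small MAF, followed the same order, with 17.6 to 28.7 TPM in 5 tumors, 6.97 TPM in replicate 5 and 5.34 to 11.8 TPM in peritumoral liver (log2 fold change 1.22). Replicate 5 had the lowest TPM of *Nfe2l2*, *Keap1*, *Bach1* and *Maff* among the 6 tumors, but the highest of *Mafg* (27.15 TPM against at most 18.05), another small MAF, and of *Sqstm1* (542 TPM against at most 339), whose product p62 binds KEAP1. Of the 11 regulators listed, 3 were higher in tumors (*Bach1*, *Maff* and *Mafk*), *Mafg* was lower and 7 did not pass, beside 19.5% of the tested genes higher and 18.1% lower.

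Glutathione is made from cystine, which enters through the transporter xCT encoded by *Slc7a11*, and its first step is carried out by glutamate-cysteine ligase, of which *Gclc* encodes the catalytic and *Gclm* the modifier subunit. *Slc7a11* (chr3:49892526-50443614, minus strand) was close to absent in mice without DEN, with 1 to 12 expected counts in each of the 7 libraries and at most 0.24 TPM. In DEN-L-CD it had 0.21, 0.12, 3.47 and 1.10 TPM, and in DEN-PT-WD 0.35 to 2.02 TPM with a median of 1.17. Tumors had 4.68, 3.87, 1.25, 2.73, 134 and 3.96 TPM in replicates 1 to 6. All tumors but replicate 3 lay above all peritumoral samples, and replicate 5 was 28.7-fold above the next tumor. The tumor difference from peritumoral liver was 4.25 ± 0.90 (adjusted p = 0.000749) and fell to 1.36 ± 0.54 without replicate 5 (adjusted p = 0.0472).

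Against nonDEN-L-WD, *Slc7a11* was higher in tumors (log2 fold change 8.66, adjusted p = 0.000167, or 5.77 without replicate 5). The peritumoral difference from nonDEN-L-WD was 4.41 ± 1.55 (adjusted p = 0.0626) and that of DEN-L-CD from nonDEN-L-CD was 4.97 ± 1.92 (adjusted p = 0.0669). Both passed once replicate 5, which is in neither comparison but enters the shared spread, was left out (adjusted p = 0.00334 and 0.00246). Every library of DEN-L-CD had more counts (20 to 554) than any of nonDEN-L-CD, and without DEN-L-CD replicate 3 that difference was 3.55 (adjusted p = 0.228). That library is among those with pancreas RNA, with a marker sum of 1944 TPM against 14.0 to 300.3 TPM in the rest of its group. Of the other libraries with pancreas RNA, DEN-PT-WD replicates 1, 2 and 6 had 0.35, 0.99 and 0.36 TPM of *Slc7a11*. There were 0.01 TPM in nonDEN-L-WD replicate 4 and 3.96 TPM in DEN-T-WD replicate 6. The part of pancreas RNA in the difference was not tested. With so few counts in the mice without DEN, these fitted values depend on 1 to 12 counts. On the log2(TPM + 1) scale limma gave 1.83 for tumors against peritumoral liver and 2.7 for tumors against nonDEN-L-WD, both past the test, but 0.87 for peritumoral liver against nonDEN-L-WD (adjusted p = 0.351) and 0.79 for DEN-L-CD against nonDEN-L-CD (adjusted p = 0.6). DESeq2 gave *Slc7a11* no p-value in any of the 7 comparisons. An antisense transcript and pseudogenes overlap the locus and 1.47% of its 50-base words occur in other genes.

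*Gclc* (chr9:77754535-77794485, plus strand) was among the more abundant members, with 55.7, 106 and 56.8 TPM in nonDEN-L-CD and 87.6, 153, 109 and 94.0 TPM in nonDEN-L-WD. It had 74.6 to 107 TPM in DEN-L-CD and 64.5 to 166 TPM in DEN-PT-WD (median 135). Tumors had 137, 169, 152, 133, 884 and 210 TPM. Replicates 2, 5 and 6 lay above the peritumoral range, replicate 2 only slightly, and the other tumors within it. The tumor difference of 0.92 ± 0.32 (adjusted p = 0.0275) became 0.18 ± 0.18 without replicate 5 (adjusted p = 0.448) and did not pass without DEN-PT-WD replicate 7 (adjusted p = 0.0507). Of 8 alternative fits 5 also lost the call, with log2 fold changes down to 0.38 and adjusted p-values up to 0.278. No other comparison of *Gclc* passed.

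*Gclm* (chr3:122245557-122270732, plus strand) had 122, 95.0 and 81.5 TPM in nonDEN-L-CD, 110 to 177 TPM in nonDEN-L-WD and 127 to 138 TPM in DEN-L-CD. It had 157 to 204 TPM in DEN-PT-WD (median 188) and 161, 139, 144, 145, 439 and 171 TPM in tumors. Of the 5 other tumors 3 lay below every peritumoral sample and all 5 below the peritumoral median, in contrast to replicate 5. Over all 6 tumors the difference was 0.03 ± 0.18 (adjusted p = 0.906), and without replicate 5 it was -0.36 ± 0.05 (adjusted p = 1.1e-05). In the fit without replicate 5, *Gclm* was also above nonDEN-L-CD in nonDEN-L-WD (0.50 ± 0.07) and DEN-L-CD (0.55 ± 0.07). An antisense transcript and a pseudogene overlap *Gclm*, 4.58% of its 50-base words are shared, and the use of strand in counting is not stated, so reads of these loci may not be fully separated.

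*Nqo1* (chr8:107388225-107403206, minus strand), which encodes a quinone reductase and is a standard readout of NRF2, had 2.07, 3.23 and 2.21 TPM in nonDEN-L-CD. It had 8.67, 9.11, 8.48 and 4.89 TPM in nonDEN-L-WD and 4.81, 7.34, 8.83 and 6.84 TPM in DEN-L-CD. DEN-PT-WD ranged from 9.51 to 17.1 TPM (median 14.6), and tumors had 19.0, 19.6, 17.8, 18.7, 151 and 33.0 TPM. In TPM the nonDEN-L-CD libraries lay below all others, and nonDEN-L-WD and DEN-L-CD overlapped each other. Peritumoral liver lay above both in TPM, and all tumors lay above peritumoral liver. As a share of the expected counts of a library, tumors and peritumoral liver overlapped. DEN-T-WD replicate 3 had 488 of 29514313 counts, a lower share than the 448 of 25491803 in DEN-PT-WD replicate 2. *Nqo1* was higher in tumors than in peritumoral liver (1.43 ± 0.36, adjusted p = 0.00304, or 0.50 ± 0.16 and 0.0128 without replicate 5) and than in nonDEN-L-WD (2.08, adjusted p = 0.000824, or 1.16 and 3.6e-05 without replicate 5).

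Whether the lower steps of that order passed depended on whether replicate 5 was in the fit. Over all libraries the difference of nonDEN-L-WD from nonDEN-L-CD was 1.5 ± 0.57 (adjusted p = 0.0614) and that of DEN-L-CD from nonDEN-L-CD 1.43 ± 0.58 (adjusted p = 0.0787). Without replicate 5 the SE of both fell to 0.24 and both passed (adjusted p = 0.000128 and 0.000218), as did peritumoral liver against nonDEN-L-WD (0.65, adjusted p = 0.0164) and against DEN-L-CD (0.72, adjusted p = 0.0111). Replicate 5 belongs to none of the groups compared, and the fold changes hardly moved without it.

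Thioredoxin is kept reduced by thioredoxin reductase, encoded by *Txnrd1*, and over-oxidized peroxiredoxins are repaired by sulfiredoxin, encoded by *Srxn1*. *Txnrd1* (chr10:82833951-82897712, plus strand) had 47.1, 69.2 and 60.6 TPM in nonDEN-L-CD, 36.8 to 58.1 TPM in nonDEN-L-WD and 41.6 to 50.05 TPM in DEN-L-CD. It had 52.7 to 61.2 TPM in DEN-PT-WD and 67.0, 69.0, 52.6, 53.9, 150 and 73.1 TPM in tumors. It passed in no comparison over all libraries, with a tumor difference of 0.31 ± 0.14 (adjusted p = 0.0928), or 0.05 ± 0.07 without replicate 5. In the fit without replicate 5 it was below nonDEN-L-CD in nonDEN-L-WD (-0.49 ± 0.10) and DEN-L-CD (-0.41 ± 0.10). With all tumors kept neither passed (adjusted p = 0.0830 and 0.150). The values were then -0.40 and -0.32 without nonDEN-L-CD replicate 2 (adjusted p = 0.276 and 0.400). They were -0.45 and -0.38 without replicate 3 (adjusted p = 0.190 and 0.288) and -0.62 and -0.54 without replicate 1 (adjusted p = 0.0508 and 0.0936). *Eid3* lies within *Txnrd1* on the same strand.

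*Srxn1* (chr2:152105516-152111376, plus strand) had 11.2 TPM in nonDEN-L-CD replicate 1 but 71.3 and 74.2 TPM in replicates 2 and 3. It had 21.8, 33.6, 25.9 and 16.3 TPM in nonDEN-L-WD and 14.2, 15.6, 27.4 and 19.4 TPM in DEN-L-CD. DEN-PT-WD ranged from 25.6 to 40.7 TPM (median 33.5), and tumors had 61.9, 80.0, 47.5, 52.7, 227 and 93.9 TPM. All tumors lay above all peritumoral samples, and 2 of the untreated control livers reached the level of the tumors. *Srxn1* was higher in tumors than in peritumoral liver (1.34 ± 0.32, adjusted p = 0.00201, or 0.91 ± 0.27 and 0.0101 without replicate 5). It was also higher in tumors than in nonDEN-L-WD (1.58, adjusted p = 0.00256, or 1.15 without replicate 5).

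DEN-L-CD had less *Srxn1* than nonDEN-L-CD (-1.48 ± 0.45, adjusted p = 0.0220), the only member to pass in that comparison, and the difference of nonDEN-L-WD was -1.23 ± 0.45 (adjusted p = 0.0504). Both rest on nonDEN-L-CD replicates 2 and 3. Without replicate 2 or replicate 3 the DEN-L-CD difference was -1.23 and -1.11 (adjusted p = 0.117 and 0.135). Without nonDEN-L-CD replicate 1 the differences of DEN-L-CD and nonDEN-L-WD were -1.96 and -1.72 (adjusted p = 0.000934 and 0.00282). The DEN-L-CD difference was -1.38 and -1.39 without DEN-L-CD replicate 1 or 2, and did not pass (adjusted p = 0.0581 and 0.0631). Replicates 2 and 3 of nonDEN-L-CD also stood apart in the metallothioneins *Mt1* and *Mt2*, metal-binding stress proteins, with summed levels of 4392 and 4175 TPM against 240 TPM in replicate 1, and in the acute-phase genes given above. Their part in the level of *Srxn1* was not tested. Across the other libraries the metallothionein sum was 21.4 to 1680 TPM, and DEN-T-WD replicate 5, highest in *Srxn1*, had 316 TPM.

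**Figure D3:**
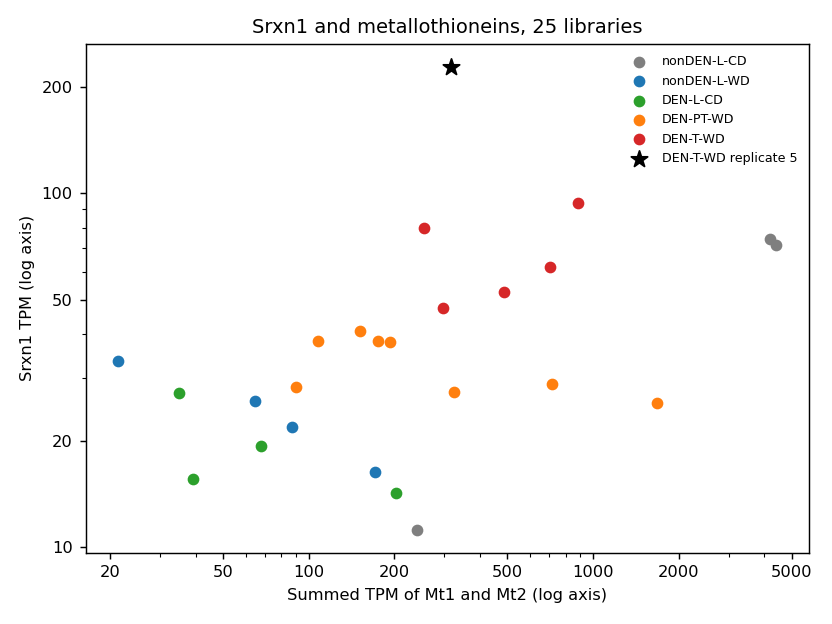
Srxn1 in TPM against the summed TPM of Mt1 and Mt2 (both log axes) in the 25 libraries, coloured by group, with DEN-T-WD replicate 5 as a star. Replicates 2 and 3 of nonDEN-L-CD sit at the far right (4392 and 4175 TPM) with Srxn1 at 71.3 and 74.2 TPM, and the star sits alone at 227 TPM of Srxn1.

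NADPH for both systems comes in part from glucose-6-phosphate dehydrogenase, the entry enzyme of the oxidative pentose phosphate pathway, encoded on the X chromosome by *G6pdx* (chrX:74409483-74429194, minus strand). *G6pdx* had 2.87, 2.71 and 2.76 TPM in nonDEN-L-CD, 2.41 to 3.34 TPM in nonDEN-L-WD and 3.12 to 4.76 TPM in DEN-L-CD. It had 3.79 to 7.49 TPM in DEN-PT-WD (median 6.56) and 7.07, 11.7, 9.75, 8.74, 14.5 and 12.3 TPM in tumors. The peritumoral samples lay above all of nonDEN-L-WD, and only the lowest tumor overlapped them. It was higher in tumors than in peritumoral liver (0.74 ± 0.16, adjusted p = 0.000686) and in peritumoral liver than in nonDEN-L-WD (0.83 ± 0.19, adjusted p = 0.00816). Without replicate 5 the tumor difference was 0.67. Of its 50-base words 16.9% are shared with *Ikbkg*, which overlaps it on the opposite strand, or *G6pd2*, so its reads may be divided with them.

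*Osgin1* (chr8:119434124-119446256, plus strand) encodes an oxidative stress-induced growth inhibitor. It had 36.4, 19.0 and 12.2 TPM in nonDEN-L-CD, 15.9, 25.7, 13.04 and 17.6 TPM in nonDEN-L-WD and 39.7, 19.4, 33.0 and 35.2 TPM in DEN-L-CD. DEN-PT-WD was wide, from 14.3 to 64.6 TPM (median 34.7), and tumors had 108, 154, 111, 81.8, 120 and 120 TPM. Every tumor lay above every other library, and replicate 5 was in the middle of the tumors. The tumor difference was 1.46 ± 0.27 from peritumoral liver (adjusted p = 0.000253, or 1.47 ± 0.29 without replicate 5) and 2.29 ± 0.36 from nonDEN-L-WD (adjusted p = 2.0e-05). Peritumoral liver differed from nonDEN-L-WD by 0.83 ± 0.33 (adjusted p = 0.0906), and by 0.95 without DEN-PT-WD replicate 6 (adjusted p = 0.0322).

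Heme oxygenase 1, encoded by *Hmox1* (chr8:75093621-75100589, plus strand), breaks heme down to biliverdin, iron and carbon monoxide and is also abundant in macrophages that clear red cells. *Hmox1* had 20.7, 18.5 and 17.7 TPM in nonDEN-L-CD, 12.6, 15.0, 16.1 and 11.2 TPM in nonDEN-L-WD and 14.4, 30.2, 12.6 and 14.2 TPM in DEN-L-CD. DEN-PT-WD ranged from 18.7 to 36.1 TPM (median 26.2) and DEN-T-WD from 20.6 to 43.6 TPM (median 25.9). These groups overlapped each other and lay above nonDEN-L-WD. *Hmox1* was higher than in nonDEN-L-WD both in peritumoral liver (0.76 ± 0.21, adjusted p = 0.0220) and in tumors (0.71 ± 0.22, adjusted p = 0.00924), while tumors and peritumoral liver differed by -0.05 ± 0.18 (adjusted p = 0.864). Without nonDEN-L-WD replicate 1 or 4 the peritumoral difference had an adjusted p of 0.0690 and 0.0745. With any 1 library of either group left out its log2 fold change stayed between 0.66 and 0.84. Without the 6 libraries with pancreas RNA the tumor difference was 0.61 and just missed the threshold.

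The level of *Hmox1* moved with that of macrophage markers. The summed TPM of 7 macrophage markers was 286 to 660 in DEN-PT-WD and 288 to 666 in DEN-T-WD, against 197 to 394 in nonDEN-L-WD. Of the 7, 3 passed as higher in peritumoral liver than there, and 2 as higher and 2 as lower in tumors. DEN-L-CD replicate 2, highest in *Hmox1* in its group, also had the highest sum there (383 TPM against 207 to 244), and DEN-PT-WD replicate 6, lowest in *Hmox1*, had the lowest (286 TPM). In nonDEN-L-WD the highest sum was that of replicate 2 (394 TPM), whose *Hmox1* (15.0 TPM) was not the highest of the group. Over the 25 libraries, which share groups and a mouse strain, the log2 levels had a Pearson r of 0.85 and a Spearman rho of 0.84, given as a description. *Hmox1* per 100 TPM of the macrophage sum was highest in nonDEN-L-CD (7.04 to 10) and lower in nonDEN-L-WD (3.81 to 6.38). The part of macrophages in the difference was not tested. *Cd44*, *Spic* and *Fcgr3* had the patterns most like *Hmox1* of all tested genes (r of 0.87, 0.87 and 0.86 over 25 libraries), and the same 3 led without replicate 5. *Spic* encodes a transcription factor of red pulp macrophages and *Fcgr3* an Fc receptor of myeloid cells.

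**Figure D4:**
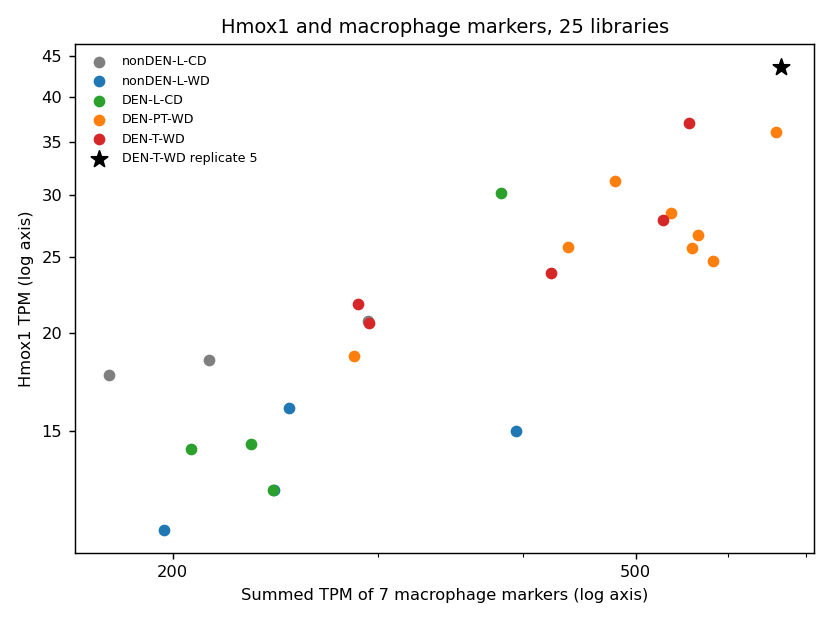
Hmox1 in TPM against the summed TPM of 7 macrophage markers (both log axes) in the 25 libraries, coloured by group, with DEN-T-WD replicate 5 as a star. Peritumoral and tumor samples share one range, and DEN-L-CD replicate 2, at 30.2 TPM of Hmox1 and 383 TPM of markers, lies apart from its group.

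As many members passed in tumors against untreated liver on the same diet, and fewer where no tumor was compared. Against nonDEN-L-WD, 6 of 10 members were higher in tumors (25.9% of the tested genes were, and 23.1% lower) and 2 of 10 in peritumoral liver (7.5%, and 4.87% lower). Without replicate 5 these became 7 higher with *Gclm* lower (26.3% and 24.7% of the tested genes), and 5 higher (10.4%, and 7.43% lower). For the western diet in untreated mice 1 of 10 was higher (11.2%, and 12% lower) and for DEN under the control diet 1 of 10 was lower (12.2%, and 9.12% higher). Without replicate 5, 3 of 10 were higher and 2 lower in each of these (*Nqo1*, *Gclm* and either *Nfe2l2* or *Slc7a11* higher, *Txnrd1* and *Srxn1* lower), beside 13.7% and 14.4%, and 11.6% and 14.4%, of the tested genes.

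Peritumoral liver (western diet) and DEN-L-CD (control diet) differed in 0 of 10 members by edgeR (10.6% of the tested genes in either direction), with 1 member at an unadjusted p under 0.05. DESeq2 also gave 0, limma on log2(TPM + 1) gave 4 and the fit without replicate 5 gave 1 (*Nqo1*, beside 15.6%). The share of all tested genes under limma was not computed. On the log2 TPM scale the median tested gene was itself 0.30 higher in peritumoral liver, against 0.01 on the TMM scale. Without DEN-L-CD replicate 2 *Hmox1* passed (0.66, adjusted p = 0.0322, against 0.30 with it), and its interaction rose from 0.89 to 1.25 (adjusted p = 0.0103). The interaction of DEN with diet, whether DEN goes with a different change under the western diet than under the control diet, also gave 0 of 10 (8.39%), with 2 members at an unadjusted p under 0.05, 1 by DESeq2 and 1 by limma. Without replicate 5 it gave 3 (12.5% of the tested genes): *Srxn1* (1.72 ± 0.48) and *Txnrd1* (0.49 ± 0.13) higher and *Gclm* (-0.39 ± 0.09) lower. With all tumors kept, the interaction of *Srxn1* was 1.47 without nonDEN-L-CD replicate 2 (adjusted p = 0.200) and 1.34 without replicate 3 (adjusted p = 0.213), and 2.19 without replicate 1 (adjusted p = 0.00558). The interaction sets peritumoral liver against whole liver, so that site and carcinogen cannot be told apart in it. The comparisons against nonDEN-L-CD, the interaction included, share its 3 libraries, and those against nonDEN-L-WD share its 4.

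Around the members, 47 other genes of the pathway were listed. In tumors against peritumoral liver 13 were higher and 9 lower, with a median log2 fold change of -0.01 that was close to that of all genes (0.01). Without replicate 5, 10 were higher and 20 lower. The 6 largest differences among those at least 2-fold were *Gpx2* (4.8), an intestinal glutathione peroxidase, *Ggt1* (4.26), which cleaves extracellular glutathione, *Cbr3* (3.25), a carbonyl reductase, *Abcc4* (2.23), an export pump, *Maff* (1.22) and *Pgd* (1.20), the dehydrogenase that follows *G6pdx* in its pathway. Without replicate 5 *Gpx2* (0.94), *Ggt1* (-0.80) and *Abcc4* (0.23) no longer passed, while *Cbr3* (1.49), *Pgd* (0.64) and *Maff* (1.41) did.

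By role, the 7 glutathione genes other than members had 4 higher and *Gpx1* lower in tumors, and *Gss* (0.76, adjusted p = 1.7e-05), which completes glutathione synthesis, and *Slc3a2* (0.57), the partner chain of xCT, were among the 4. *Gsr*, glutathione reductase, differed by 0.33 ± 0.24 (adjusted p = 0.306), and by -0.24 without replicate 5 (adjusted p = 0.0217). The thioredoxin genes had 1 of 9 higher and 3 lower, *Txn1* among them (-0.37, adjusted p = 0.000919). Of the 5 NADPH genes *Pgd* was higher and 2 were lower, of the 9 genes of detoxification and transport 3 were higher and 1 lower, and of the 6 genes of heme and iron *Slc48a1*, a heme transporter, was higher (1.03) and *Slc40a1*, the iron exporter, lower. These counts stand beside 19.5% of the tested genes higher and 18.1% lower, and most depended on replicate 5. Without it the higher and lower genes were 2 and 2 for glutathione, 1 and 7 for thioredoxin, 1 and 3 for NADPH, 2 and 4 for detoxification and transport and 1 and 3 for heme and iron, while the regulators stayed at 3 and 1. Among the other comparisons, *Abcc3* (1.14), an export pump, was at least 2-fold above nonDEN-L-CD in nonDEN-L-WD, and *Txnrd3* (1.02), a thioredoxin reductase, in DEN-L-CD, and the interaction of *Txnrd3* was -1.04. In tumors against nonDEN-L-WD the 6 largest were *Gpx2* (6.35), *Cbr3* (5.56), *Abcc4* (3.82), *Cbr1* (1.89), *Maff* (1.8) and *Slc48a1* (1.53), all of which also passed without replicate 5, at 2.48, 3.8, 1.81, 1.3, 1.98 and 1.46. Of the 47 genes, 11 were higher and 11 lower there, or 11 and 21 without replicate 5. In peritumoral liver against nonDEN-L-WD 1 was higher and 1 lower, or 4 and 3 without replicate 5. For the western diet 5 were higher and 1 lower (7 and 1), and for DEN under the control diet 6 and 0 (10 and 0). In peritumoral liver against DEN-L-CD 1 was higher and 1 lower (4 and 2), and for the interaction 1 and 4 (1 and 5). The shares of all tested genes in each comparison are those given above for the members.

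DEN-T-WD replicate 5 exceeded 2 times the highest other tumor in 18 of the 47 genes, beside 2.66% of the tested genes. *Gpx2* was at 137 TPM there and at most 4.00 TPM elsewhere, *Ggt1* at 105 TPM against at most 1.42 TPM in the other tumors and 22.8 TPM in nonDEN-L-WD replicate 1, and *Cbr3* at 369 TPM and at most 41.8 TPM. *Abcc4* was at 102 TPM against at most 7.28 TPM, *Ugdh*, which makes UDP-glucuronate, at 773 TPM against at most 125 TPM in the other tumors, *Gsr* at 155 TPM against at most 44.1 TPM in those tumors and *Pgd* at 214 TPM against at most 66.25 TPM. In TMM-normalized CPM 8 of the 10 members and 35 of the 47 genes lay above all other tumors in this library, as 30.4% of the tested genes did, and those named were taken from the high ones, while *Nfe2l2* lay below them and *Osgin1* among them. Its cell markers differed too, and pericentral markers summed to 1477 TPM against 2239 to 3181 TPM in the other tumors. Among them *Cyp1a2* was higher (124 TPM against 54.1 to 86.5), and *Lgr5* and *Axin2* lay within the TPM range of the other tumors. Macrophage markers summed to 666 TPM against 288 to 556 TPM. The part of its cell makeup in the member levels was not tested. DEN-L-CD replicate 3, highest in its group in *Slc7a11*, was also highest there in *Cbr3* (7.63 TPM), *Abcc4* (5.73 TPM), *Gpx2* (3.19 TPM) and *Ggt1* (1.85 TPM), and it is the library of that group with the pancreas markers.

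**Figure D5:**
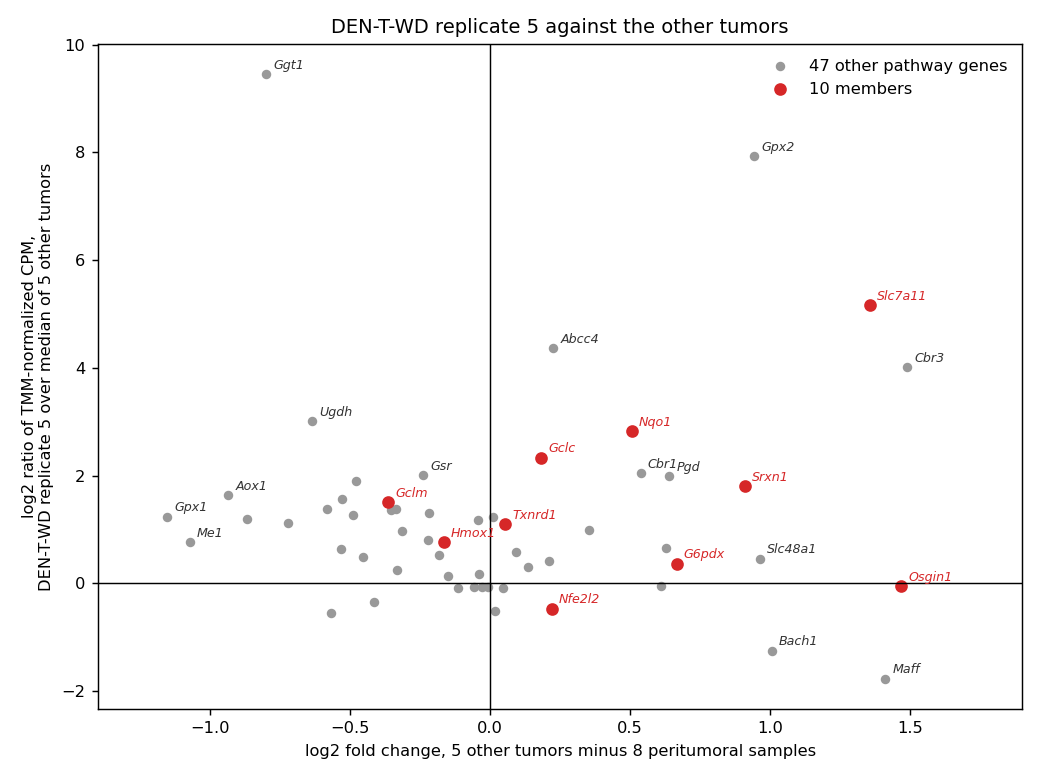
Each point is a gene, the 10 members in red and 47 other pathway genes in grey, with the log2 fold change of the 5 other tumors from peritumoral liver on the x axis and the log2 ratio of DEN-T-WD replicate 5 to the median of the 5 other tumors (TMM-normalized CPM) on the y axis. Slc7a11, Nqo1, Gclc, Gpx2, Ggt1, Cbr3 and Abcc4 are high on the y axis, Osgin1 is high on the x axis alone, and Maff and Bach1 are right of and below the origin.

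The genes most like each member by Pearson r of log2 CPM over the 25 libraries also depended on replicate 5, and these r are descriptions over libraries that share groups. *Slc7a11* was most like *Cbr3* (0.93), *Nqo1* most like *Mid2* (0.96) and *Gclc* most like *Gstm4* (0.91), and none of the 3 was among the leading 3 genes of its member over the 24 other libraries. *Nfe2l2* kept *Eepd1* as the leading gene (0.92 with and 0.93 without replicate 5). *Srxn1* had *Mvp* (0.92), *Arl6ip5* and *Krt8*, of which *Mvp* and *Krt8* remained among the leading 3. *G6pdx* was most like *Slc39a4* (0.93), *Gclm* most like *Cryl1* (0.92) and *Txnrd1* most like *Il4ra* (0.85), each replaced without replicate 5.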

How the data were processed

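mRNA of 25 mouse liver and tumor samples was sequenced from one end of each fragment on a HiSeq 2500 (KAPA mRNA HyperPrep). The authors checked reads with FastQC (0.11.7), aligned them to GRCm38 with STAR and estimated each gene with RSEM, and they deposited the estimated counts (expected counts, not normalized) and the TPM values (length-corrected shares of the transcripts) for each sample. RSEM divides reads that match several genes. Versions of STAR and RSEM, the annotation and the use of strand are not given in the sources used here. The deposited FPKM values were not used.

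Expected counts were rounded and fitted in 1 model over the 5 groups with edgeR 4.0.16 (R 4.3.3, TMM, quasi-likelihood test), after filterByExpr with a minimum count of 10, which left 15625 genes. The SE is the log2 fold change divided by the square root of F. A gene counted as at least 2-fold changed also differed by 1 or more on the log2 scale. Alternatives used DESeq2 1.42.0, limma 3.58.1 on log2(TPM + 1) or log2(TPM + 0.1), no filter, only the groups compared, a replicate block, and each library left out. Leaving out DEN-T-WD replicate 5 where no tumor is compared, or the 6 libraries with over 1000 TPM of pancreas markers, was chosen after seeing the data. Groups and replicate numbers came from the labels. The model was tested on simulated data, where for tumors against peritumoral liver it recovered 86 of 100 genes changed 2-fold and 96 of 100 changed 4-fold, with 11 other genes called of 14520. For the western diet in untreated mice it recovered 52 of 100 and 95 of 100, with 7 others of 14622. No 2 libraries of a group were alike within counting error.

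The members and lists were chosen with earlier results of these data known. Named were all members, *Keap1*, *Bach1*, *Gss*, *Gsr*, *Slc3a2*, *Txn1* and *Pgd*, up to 6 listed pathway genes per comparison with the largest change among those past both thresholds, and the genes most like each member (up to 3). The likeness result for *Osgin1* is not reported here. *Mafk*, *Mafg*, *Sqstm1*, *Gpx1*, *Slc40a1*, *Ugdh* and the pathway genes given for DEN-L-CD replicate 3 were named after their values were seen.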

Additional observations from a re-analysis of the deposited data

Results flagged for a closer look

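In 40 groups of 4 to 8 libraries (10 members in 4 groups), 9 held a library whose gap to its nearest neighbour, as a share of the range of the group, was above Dixon's critical value, where chance gives about 1 in 20. DEN-T-WD replicate 5 accounted for 6 of the 9, each as the highest tumor. These were *Nqo1* at 150.67 TPM (next 32.96), *Gclc* at 883.76 TPM (next 209.59), *Gclm* at 438.87 TPM (next 170.88), *Txnrd1* at 150.15 TPM (next 73.07), *Srxn1* at 227 TPM (next 93.9) and *Slc7a11* at 134.39 TPM (next 4.68). The others were *Nqo1* in nonDEN-L-WD replicate 4, the lowest of its group at 4.89 TPM (next 8.48), *Gclc* in DEN-PT-WD replicate 7, the lowest at 64.46 TPM (next 119.7), and *Hmox1* in DEN-L-CD replicate 2, the highest at 30.2 TPM (next 14.45).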

How the results depend on the processing

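The number of members past the test stayed within 1.5 times in tumors against peritumoral liver (5 to 7 of 10) and against nonDEN-L-WD (5 to 9), and no member that passed turned its sign under any alternative. The other counts depended on the fit. With only the groups compared they were 5 for the western diet, 5 for DEN under the control diet, 4 for peritumoral liver against nonDEN-L-WD, 2 for peritumoral liver against DEN-L-CD and 3 for the interaction. With limma on log2(TPM + 1) they were 0 for DEN under the control diet, 4 for peritumoral liver against DEN-L-CD and 1 for the interaction, and on log2(TPM + 0.1) 4 for peritumoral liver against nonDEN-L-WD, 2 for the western diet, 4 and 1. DESeq2 gave 3 for the western diet, 2 for DEN under the control diet and 1 for the interaction, and its size factors in edgeR gave 2 for the western diet. With single libraries left out the counts ran from 0 to 5 for the western diet, 0 to 5 for DEN under the control diet, 1 to 5 for peritumoral liver against nonDEN-L-WD, 0 to 1 for peritumoral liver against DEN-L-CD and 0 to 3 for the interaction, each reaching its highest without DEN-T-WD replicate 5. The cause was not tested. The share of all tested genes past the test was computed only for the main fit and the fit without DEN-T-WD replicate 5. Counts of members from the other fits, here and below, stand without that share.

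Whether replicate numbers pair the samples could not be decided. Same-numbered samples had correlations from -0.23 to 0.388, in no comparison over 0.1 for every pair. The mean was 0.071 for tumors against peritumoral liver. It was 0.135 for the western diet in untreated mice and 0.149 for DEN under the control diet, where no mouse is shared. A replicate block gave 5 for tumors against peritumoral liver, 1 for peritumoral liver against nonDEN-L-WD, 2 for the western diet and 4 for DEN under the control diet. With it *Hmox1* lost its call in peritumoral liver against nonDEN-L-WD (0.59, adjusted p = 0.103). Log2 fold changes that turned sign with the block were *Gclm* (-0.10 and -0.080 in tumors against peritumoral liver and nonDEN-L-WD, -0.030 in peritumoral liver against DEN-L-CD), *Hmox1* (0.0024, tumors against peritumoral liver), *Gclc* (-0.010) and *Txnrd1* (-0.033) in peritumoral liver against nonDEN-L-WD, and *G6pdx* (0.015, western diet).

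Other sign changes were all in differences that had not passed. In tumors against peritumoral liver limma gave -0.028 and -0.029 for *Gclm* and 0.064 and 0.065 for *Hmox1* (offsets 1 and 0.1). For the western diet *G6pdx* was 0.0047 with no filter, 0.065 and 0.082 with limma and 0.10 without the libraries with pancreas RNA. In peritumoral liver against DEN-L-CD *Osgin1* was -0.011 with DESeq2, -0.010 with its size factors and -0.0011 with no filter, *Txnrd1* 0.31 with limma and 0.036 without the pancreas libraries, and *Slc7a11* 0.13, 0.56 and 1.37. For the interaction *Gclm* was 0.011 and 0.010 with limma and *Slc7a11* 0.079, 0.36 and 0.95. Without the pancreas libraries *Gclc* was -0.044 in peritumoral liver against nonDEN-L-WD and *Hmox1* 0.010 for DEN under the control diet.

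With single libraries left out the sign also turned, over these ranges: *G6pdx* -0.060 to 0.10, *Osgin1* -0.70 to 0.036 and *Slc7a11* -0.37 to 0.96 for the western diet; *Gclc* -0.089 to 0.15 in peritumoral liver against nonDEN-L-WD; *Gclm* -0.36 to 0.12 and *Hmox1* -0.17 to 0.037 in tumors against peritumoral liver; *Gclm* -0.20 to 0.28 in tumors against nonDEN-L-WD; *Hmox1* -0.49 to 0.0099 for DEN under the control diet; *Osgin1* -0.17 to 0.15, *Slc7a11* -0.81 to 0.99 and *Txnrd1* -0.043 to 0.039 in peritumoral liver against DEN-L-CD; and *Osgin1* -0.047 to 0.71 and *Slc7a11* -1.39 to 0.86 for the interaction. *Slc7a11* had 1 to 12 counts in mice without DEN, which limits every ratio to them.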
